A study of Mus musculus with 48 samples.

Results

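The genes of nutrient and ion absorption were followed here as a set of 37 genes, chosen by name: brush border enzymes, transporters and lipid-handling genes of enterocytes, and ion and water transporters of colonocytes. A region of captured DNA was counted as theirs when it overlapped a gene or lay within 5 kb of it. By this rule 103 of the 95882 regions in the deposited table belonged to the set, and 31 of the 37 genes had at least 1 region. Sis, Slc6a19, Fabp1, Fabp2, Car4 and Aqp8 had none, so nothing can be said of them beyond that.

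DNA methylation was measured by MBD-seq: DNA was sheared, the fragments that a methyl-CpG-binding protein domain holds were kept, and these were sequenced from 1 end. The duodenum, jejunum, ileum and colon were taken from each of 7 mice of the model GermFree, kept without microbes, and 5 mice of the model ConvR, the conventionalised mice, which gave 48 libraries, 1 per mouse and section. The sources used here give no strain, age or sex, nor when the ConvR mice were conventionalised, nor whether epithelium was separated from the rest of the wall. The label is intestine as a whole, and a change in the methylation of 1 cell type cannot be told apart from a change in the mix of cell types. A value is in CPM, the reads of a region scaled to a common library size. It rises with methylation, with the number of CpG sites and with copy number, and it says nothing of how strongly a gene is transcribed, so the tissue labels could not be checked against expressed markers.

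Absorption is divided along the gut. Enterocytes of the small intestine carry a brush border whose enzymes split sugars and peptides and whose transporters take up the products. Their lipid machinery packs dietary fat and cholesterol into chylomicrons. Iron is taken up mainly in the duodenum, and colonocytes recover salt and water. Many of these genes are switched on in one stretch of the epithelium and silent in another, and methylation of CpG sites at promoters and enhancers is one of the layers that can differ between stretches, while transcribed gene bodies are commonly methylated.

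Of the 103 regions, 84 overlapped a listed gene and 19 lay in its flanks. The same split over all genes was not computed, and gene length beside the 5 kb flanks partly sets it. For 29 genes the RefSeq table of promoter windows (GRCm38.p6, the coordinates of mm10) gives a start site. A window runs from 250 bases before the start to 50 bases after it. Of the 31 windows of these 29 genes, 2 (6.45%) overlapped a region, against 8.57% of all 32851 windows and 5.5% of those of protein-coding genes. These 2 windows belong to Slc2a2, the facilitative glucose transporter GLUT2, and to the upstream start of Abcg8, which forms with Abcg5 the sterol exporter of the brush border. They are printed here beside the second Abcg8 start and the start of Cybrd1, neither of which a region covered, because captured DNA depends on the CpG sites a fragment holds. Capitals mark each CG dinucleotide, which reads the same on both strands.
Slc2a2, chr3:28697653-28697952, + strand: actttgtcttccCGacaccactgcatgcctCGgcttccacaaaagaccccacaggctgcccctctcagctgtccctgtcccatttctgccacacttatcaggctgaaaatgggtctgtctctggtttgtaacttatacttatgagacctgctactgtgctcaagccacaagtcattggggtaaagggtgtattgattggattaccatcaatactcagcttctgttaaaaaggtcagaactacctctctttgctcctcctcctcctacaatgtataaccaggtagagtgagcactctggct
Abcg8 upstream start, chr17:84676052-84676351, + strand: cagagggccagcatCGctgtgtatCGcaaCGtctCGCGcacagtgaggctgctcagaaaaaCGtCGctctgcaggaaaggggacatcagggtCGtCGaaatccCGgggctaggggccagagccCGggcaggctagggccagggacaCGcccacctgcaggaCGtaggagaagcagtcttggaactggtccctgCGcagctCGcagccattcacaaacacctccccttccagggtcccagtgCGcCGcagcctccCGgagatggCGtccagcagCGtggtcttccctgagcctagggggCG
Abcg8 downstream start, chr17:84682871-84683170, + strand: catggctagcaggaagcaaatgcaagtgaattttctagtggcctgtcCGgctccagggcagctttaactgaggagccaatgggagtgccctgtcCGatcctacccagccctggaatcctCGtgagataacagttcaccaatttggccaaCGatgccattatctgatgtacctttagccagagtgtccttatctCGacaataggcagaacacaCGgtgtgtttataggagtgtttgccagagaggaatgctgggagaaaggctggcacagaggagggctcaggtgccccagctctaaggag
Cybrd1, chr2:71117804-71118103, + strand: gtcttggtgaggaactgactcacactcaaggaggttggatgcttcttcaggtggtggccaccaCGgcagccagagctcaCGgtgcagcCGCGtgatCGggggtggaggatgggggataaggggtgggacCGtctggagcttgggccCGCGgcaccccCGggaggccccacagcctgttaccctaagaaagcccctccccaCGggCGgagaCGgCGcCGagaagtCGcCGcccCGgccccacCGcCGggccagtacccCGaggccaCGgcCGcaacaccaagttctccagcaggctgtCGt
The Slc2a2 window held 2 CpG sites and the upstream Abcg8 window, which also lies inside Abcg5, held 21. The regions over these windows are 2449 and 3454 bp wide. Counts are per region, so the captured reads cannot be tied to the CpG sites of a window. The downstream Abcg8 window held 6 and the Cybrd1 window 23. Over the windows of the listed genes the median was 6 CpG sites, with a range from 1 (Lct, Sis, Alpi, Apoa4, Slc26a3 and Trpv6) to 28 (Anpep). The median was 7 over all windows and 13 over those of protein-coding genes, and 94.6% of all windows held at least 1 CG. A region next to the start of Alpi, 646 bases into the gene, lay just outside its window.

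The listed regions were wider than usual, with a median of 1797 bp against 1208 bp for all regions, and at 5.48 CPM per kb of region their median level was close to the 6.22 CPM per kb of all regions. Library totals lay between 1007560 and 3033782 counts. A listed region held a median of 20 counts per library, with a range of medians from 6 to 105.5, so a single region is measured with a wide counting error. For this reason each comparison was made per region and again on gene sums, the counts of all regions of a gene added up. Summed levels per kb of region ran from 4.42 CPM per kb for the amino acid transporter Slc7a9 to 8.36 CPM per kb for the iron exporter Slc40a1. Slc40a1 rests on 1 region of 456 bp with a median of 7 counts per library. Narrow regions tended to have higher values per kb. The narrowest listed region, 415 bp, had 8.25 CPM per kb and the widest, 11125 bp, had 4.68, so these levels do not rank methylation.

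The gradient from duodenum to colon was asked first. No listed region passed the threshold, an adjusted p of 0.05 over all regions in edgeR's quasi-likelihood test, along the fitted gradient, where 0.0156% of the 95876 tested regions passed. At an unadjusted p under 0.05 there were 10 of the 103 (9.71%, against 10.5% of all regions), and DESeq2, which gave an adjusted p for 4 of them after its own filter, called 0 of these. Fitted with the mouse as a block, since each mouse gave all 4 sections, edgeR called 1087 of all regions and again 0 of the listed ones. The 31 gene sums gave 0 calls as well, against 0.493% of all 30232 gene sums, with 3 at an unadjusted p under 0.05 (9.68%, against 12.9% of all gene sums). DESeq2 gave an adjusted p for 9 of the 31 and called 0 of these, and none of the 3 was among the 9. These 3 were Apoa4 (log2 change from duodenum to colon of 0.31, 95% interval 0.07 to 0.55), Treh (0.15, 0.01 to 0.29) and Trpv6 (0.15, 0.02 to 0.28), with adjusted p from edgeR between 0.219 and 0.364.

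The 2 ends of the gut gave the same count. Between colon and duodenum 0 listed regions passed in edgeR, against 1.19% of all regions, with 10 at an unadjusted p under 0.05 (9.71%, against 13.1% of all regions). DESeq2 gave an adjusted p for 43 of them and called 0. Over all sections together, 0 listed regions passed the joint test in edgeR, against 1.17% of all regions, with 11 at an unadjusted p under 0.05 (10.7%, against 12.2% of all regions). DESeq2 gave an adjusted p for 39 of them and called 0. The difference between the ends was measured closely enough to bound it: for every listed region the 95% interval of the log2 difference stayed within 1, that is a doubling or halving, and for 75 of 103 it stayed within 0.5. For the gene sums 29 of 31 intervals stayed within 0.5. Of the gene sums 25 lay above 0 and 6 below, with a median log2 difference of 0.056, beside -0.004 over all genes. None of the 31 passed in edgeR, where 3.51% of all gene sums did. At an unadjusted p under 0.05 there were 2 (6.45%, against 16.4% of all gene sums), and DESeq2 called 0 of the 30 with an adjusted p.

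**Figure D1:**
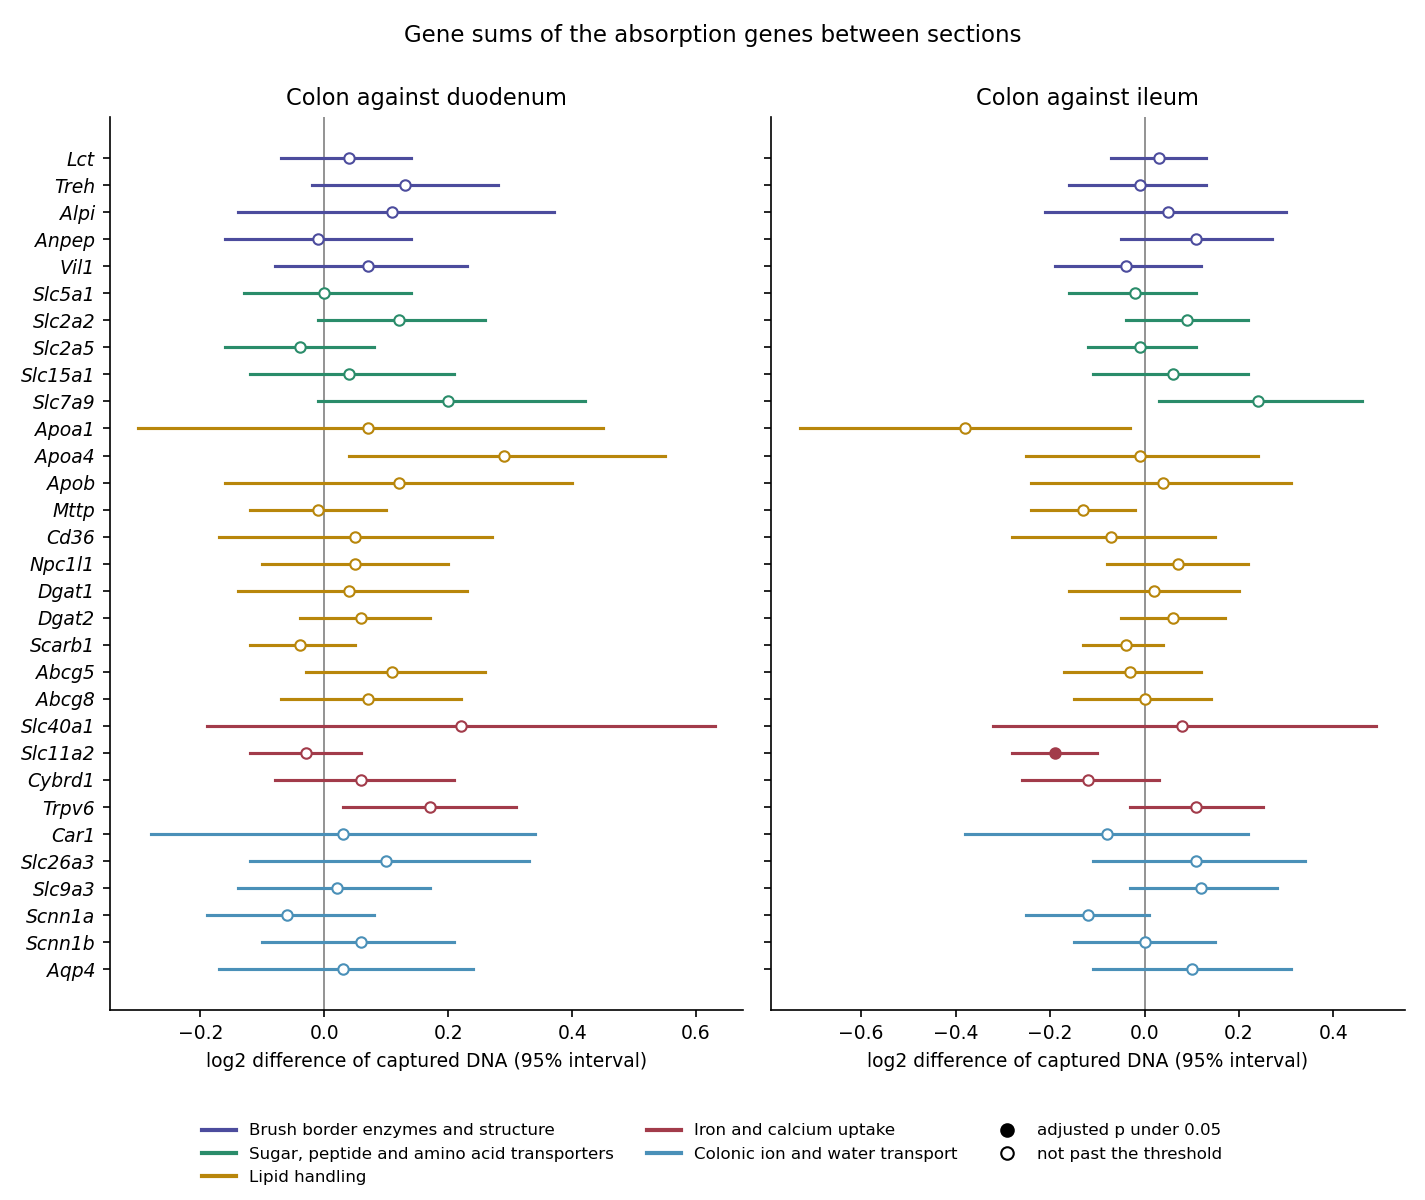
Log2 difference of captured DNA, colon minus duodenum (left) and colon minus ileum (right), for the gene sums of the 31 absorption genes with a region; points are edgeR estimates over 12 mice, lines are 95% intervals and colours give the role. The single filled point, Slc11a2 at -0.19 in colon against ileum, is the one gene sum past the threshold.

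Between neighbouring sections, the steps within the small intestine gave no call without a block and few with it. Jejunum against duodenum gave 0.0% of all regions and 0 listed regions in edgeR, with 2 listed at an unadjusted p under 0.05 (1.94%, against 5.42% of all regions) and 0 in DESeq2; with the mouse as a block 15 of all regions passed, 0 of them listed. Ileum against jejunum gave 0.0% of all regions and 0 listed regions in edgeR, with 13 listed at an unadjusted p under 0.05 (12.6%, against 6.76% of all regions) and 0 in DESeq2; with the block 1 of all regions passed, and 0 listed. Colon against ileum was the step with most calls, 2.21% of all regions, and there 1 listed region passed, in Cybrd1. It was lower in colon, as were 0.692% of all regions. At an unadjusted p under 0.05 the listed regions numbered 16, or 15.5%, next to 15.2% of all regions, close to each other.

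The listed region that passed is in Cybrd1, which encodes the duodenal cytochrome b that reduces dietary iron at the brush border. Its called region, chr2:71119375-71121228, begins 1321 bases after the start site. In duodenum its level ran from 6.34 to 11.6 CPM over the 12 mice with a median of 9.96, and in jejunum from 6.74 to 13.3 with a median of 10.3. In ileum it ran from 7.5 to 15.4 CPM with a median of 11.9, and in colon from 3.76 to 12.1 with a median of 7.6. The colon values were low in most mice, but the sections overlapped: colon was below ileum in 9 of 12 mice and above it in 3. The mean fell from 11.8 ± 2.29 CPM in ileum to 8.08 ± 2.15 in colon (SD, n = 12), a log2 difference of -0.54 (SE 0.13, 95% interval -0.80 to -0.27, edgeR adjusted p = 0.0146).

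The Cybrd1 call depended on single animals. DESeq2 gave an adjusted p of 0.0427, the fit with the mouse as a block 0.00919, and the GermFree mice alone a log2 difference of -0.61 with an adjusted p of 0.0457. It was lost without ConvR mouse 2 (-0.46, edgeR adjusted p = 0.116), ConvR mouse 5 (-0.50, 0.0692), GermFree mouse 4 (-0.51, 0.0608) or GermFree mouse 7 (-0.46, 0.0514), without both ConvR mice 1 and 3 (-0.50, 0.0547), and in the ConvR mice alone (-0.47, 0.605). Cybrd1's other region, chr2:71134135-71140578, further into the gene, did not share the difference, with a log2 value of 0.02 and a 95% interval from -0.15 to 0.19. Summed over both regions, Cybrd1 went from 40.3 ± 4.48 CPM in ileum to 37.4 ± 5.8 in colon (SD, n = 12) and did not pass.

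Slc11a2 encodes DMT1, the transporter that carries reduced iron into the enterocyte. Its 5 regions together gave 89.5 to 112 CPM in duodenum (median 101) and 90.3 to 115 in jejunum (median 104). Ileum gave 98.8 to 122 CPM (median 110.0) and colon 83.9 to 112 (median 95.6). Ranges overlapped, yet the colon value was below the ileum value of the same mouse in 12 of 12 mice. The sum was lower in colon than in ileum by a small amount, a log2 difference of -0.19 (SE 0.04, 95% interval -0.28 to -0.10, edgeR adjusted p = 0.00543). It was the 1 listed gene sum called in colon against ileum in edgeR, where 4.74% of all gene sums passed and 2.01% of all passed as lower in colon, and also the 1 called in the joint test of the sections (adjusted p = 0.0191, against 2.84% of all gene sums).

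Ileum had the highest mean of Slc11a2, 111 ± 7.87 CPM, next to 97.9 ± 8.92 in colon and 101 ± 5.88 in duodenum (SD, n = 12). Colon against duodenum was -0.03 (95% interval -0.12 to 0.06), and colon was below duodenum in 8 of 12 mice. Colon against ileum held in each fit that left out 1 mouse, with adjusted p from edgeR between 0.00158 and 0.0349, and in DESeq2 (0.0156). The joint call was lost without ConvR mouse 2, 4 or 5 or GermFree mouse 4. The 5 Slc11a2 regions had colon-against-ileum values of -0.09, -0.20, -0.18, -0.57 and -0.08 along the chromosome. The first lies in the flank, over Higd1c and Methig1, and a sum over the overlapping regions alone gave -0.21. The fourth region, chr15:100410007-100410877, fell from 7.56 ± 2.12 CPM in ileum to 5.03 ± 1.89 in colon (SD, n = 12) and passed only with the mouse as a block (log2 -0.60, edgeR adjusted p = 0.0259; 0.0687 without it), or without GermFree mouse 3 (0.0184).

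**Figure D2:**
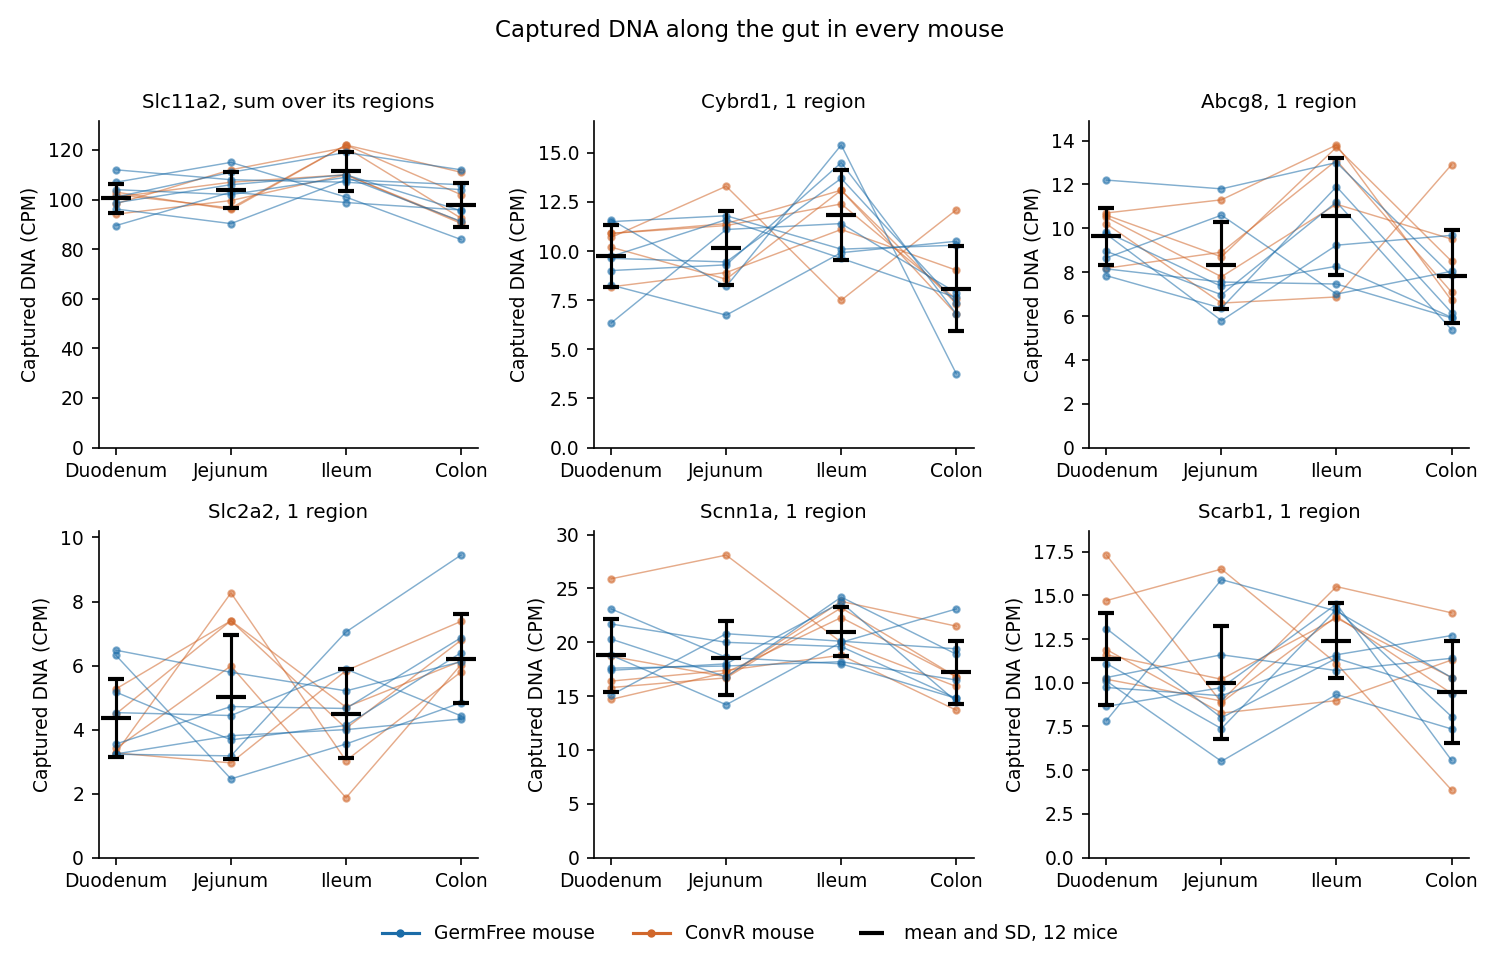
Captured DNA (CPM) in duodenum, jejunum, ileum and colon for every mouse, as lines joining the 4 libraries of a mouse, with the mean and SD of 12 mice in black; panels show the Slc11a2 gene sum and single regions of Cybrd1, Abcg8, Slc2a2, Scnn1a and Scarb1. For Slc11a2 all 12 mice lie lower in colon than in ileum, while in the other panels the sections overlap widely and lines cross.

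The other genes of iron and calcium uptake gave no call. Slc40a1, the ferroportin that releases iron to the blood, had 1 small region whose level was 3.73 ± 1.18 CPM in duodenum and 4.36 ± 1.76 in colon (SD, n = 12), and the 95% interval of its log2 difference was wide, from -0.19 to 0.63. Trpv6, the calcium channel of the apical membrane, was at 31.9 ± 4.66 CPM in duodenum and 35.3 ± 3.8 in colon (SD, n = 12). Its log2 difference was 0.17 (95% interval 0.03 to 0.31) with an unadjusted p of 0.0205 and an edgeR adjusted p of 0.200. Of the 3 Trpv6 regions, 2 lie over the neighbour Ephb6.

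Brush border genes gave no call. Lct, the lactase, had 70.9 ± 4.53 CPM in duodenum, 70.8 ± 4.68 in jejunum, 71.8 ± 7.93 in ileum and 72.4 ± 6.81 in colon (SD, n = 12) over its 5 regions. Its log2 difference from duodenum to colon was 0.04 (95% interval -0.07 to 0.14). Anpep, aminopeptidase N, gave -0.01 (-0.16 to 0.14), and Vil1, the actin-bundling villin of microvilli, gave 0.07 (-0.08 to 0.23). Treh, trehalase, gave 0.13 (-0.02 to 0.28) and Alpi, the intestinal alkaline phosphatase, 0.11 (-0.14 to 0.37). None of the 15 regions of the 5 genes passed in any comparison of sections in edgeR, and their median colon-against-duodenum value was 0.02. The Lct region chr1:128304526-128305262, inside the gene, had the lowest value of all listed regions in that comparison, -0.42 (95% interval -0.83 to -0.01, edgeR adjusted p = 0.368).

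Sugar, peptide and amino acid transporters gave no call in 19 regions of 5 genes. Slc5a1, the sodium-glucose cotransporter SGLT1, had 45.5 ± 4.34 CPM in duodenum and 44.9 ± 5.04 in colon (SD, n = 12), a log2 difference of 0.00 (95% interval -0.13 to 0.14). The fructose transporter Slc2a5 gave -0.04 (-0.16 to 0.08), the peptide transporter Slc15a1 gave 0.04 (-0.12 to 0.21), and Slc7a9, which takes up cystine and basic amino acids, 0.20 (-0.01 to 0.42). Slc7a9 was at 15.3 ± 3.13 CPM in ileum and 17.4 ± 3.23 in colon (SD, n = 12), with an edgeR adjusted p of 0.202.

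Slc2a2 had the listed region with the highest value in colon against duodenum. Its region chr3:28711400-28711996, in the gene body, ran from 3.23 to 6.48 CPM in duodenum (median 4.02), from 1.87 to 7.05 in ileum (median 4.4) and from 4.33 to 9.45 in colon (median 6.13). Colon was above ileum in 11 of 12 mice and above duodenum in 9 of 12. The log2 difference from duodenum to colon was 0.53 (95% interval 0.17 to 0.89, unadjusted p = 0.00399), but the edgeR adjusted p was 0.127. The region also overlaps the gene 1700112D23Rik. The region over the start site of Slc2a2, whose window is printed above, had 0.24 (95% interval 0.01 to 0.48, edgeR adjusted p = 0.341), while a region near the far end of the gene, chr3:28726416-28728074, had -0.08 (-0.35 to 0.18).

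Lipid handling, the most numerous group with 39 regions of 11 genes, gave no call in any comparison of sections. Scarb1, a receptor for high-density lipoprotein with 10 regions, had the highest summed level, 157 ± 11.3 CPM in duodenum and 152 ± 12.3 in colon (SD, n = 12), and a narrow interval around a log2 difference of -0.04 (-0.12 to 0.05). Mttp, which loads lipid onto apolipoprotein B, gave -0.01 (-0.12 to 0.10), and the cholesterol transporter Npc1l1 gave 0.05 (-0.10 to 0.20). Dgat1 and Dgat2, which complete triglyceride synthesis, gave 0.04 (-0.14 to 0.23) and 0.06 (-0.04 to 0.17). The fatty acid translocase Cd36, with 1 region beyond its end, gave 0.05 (-0.17 to 0.27), and Apob, the structural protein of chylomicrons, 0.12 (-0.16 to 0.40).

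Apoa4, an apolipoprotein of chylomicrons, had the largest gene sum difference between the ends. It ran from 6.49 to 12.7 CPM in duodenum (median 9.42) and from 6.74 to 17.3 in colon (median 11.3), and colon was higher in 10 of 12 mice. The log2 difference was 0.29 (95% interval 0.04 to 0.55) with an unadjusted p of 0.0236 and an edgeR adjusted p of 0.214. For Apoa1 the assigned region lies over Apoc3. It had 6.49 ± 2.15 CPM in ileum and 4.97 ± 1.28 in colon (SD, n = 12), a log2 difference of -0.38 (95% interval -0.73 to -0.03, edgeR adjusted p = 0.219).

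A region in the body of Abcg8, chr17:84691548-84693182, came close to the threshold. It ran from 6.87 to 13.8 CPM in ileum (median 11.2) and from 5.38 to 12.9 in colon (median 7.47), lower in colon in 9 of 12 mice. The log2 difference was -0.43 (95% interval -0.70 to -0.16, edgeR adjusted p = 0.0732), and DESeq2 gave 0.151. Leaving out ConvR mouse 3 (-0.58, adjusted p = 0.0088), GermFree mouse 3 (-0.49, 0.049), GermFree mouse 6 (-0.48, 0.0474) or both ConvR mice 1 and 3 (-0.55, 0.0273) took it past the threshold. Summed over its 3 regions Abcg8 was level between ileum, 41.7 ± 5.52 CPM, and colon, 42.5 ± 4.94 (SD, n = 12). One of the Scarb1 regions, chr5:125292355-125294484, had -0.35 in colon against ileum (95% interval -0.62 to -0.08, edgeR adjusted p = 0.170).

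Genes that serve the colon gave no call either. Of 8 colonic ion and water transport genes 6 had regions, 19 in all, and none passed in a comparison of sections in edgeR. Slc26a3, the chloride-bicarbonate exchanger, had 15.0 ± 3.03 CPM in duodenum and 16.1 ± 3.07 in colon (SD, n = 12), a log2 difference of 0.10 (95% interval -0.12 to 0.33). Slc9a3, the sodium-hydrogen exchanger NHE3, gave 0.02 (-0.14 to 0.17) and Car1, a carbonic anhydrase, 0.03 (-0.28 to 0.34). The subunits of the epithelial sodium channel gave -0.06 (-0.19 to 0.08) for Scnn1a and 0.06 (-0.10 to 0.21) for Scnn1b, and the water channel Aqp4 gave 0.03 (-0.17 to 0.24). The Scnn1a region chr6:125321660-125325511 was at 21.0 ± 2.3 CPM in ileum and 17.2 ± 2.92 in colon (SD, n = 12), lower in colon in 11 of 12 mice, with a log2 difference of -0.31 (95% interval -0.50 to -0.11, edgeR adjusted p = 0.0786).

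**Figure D3:**
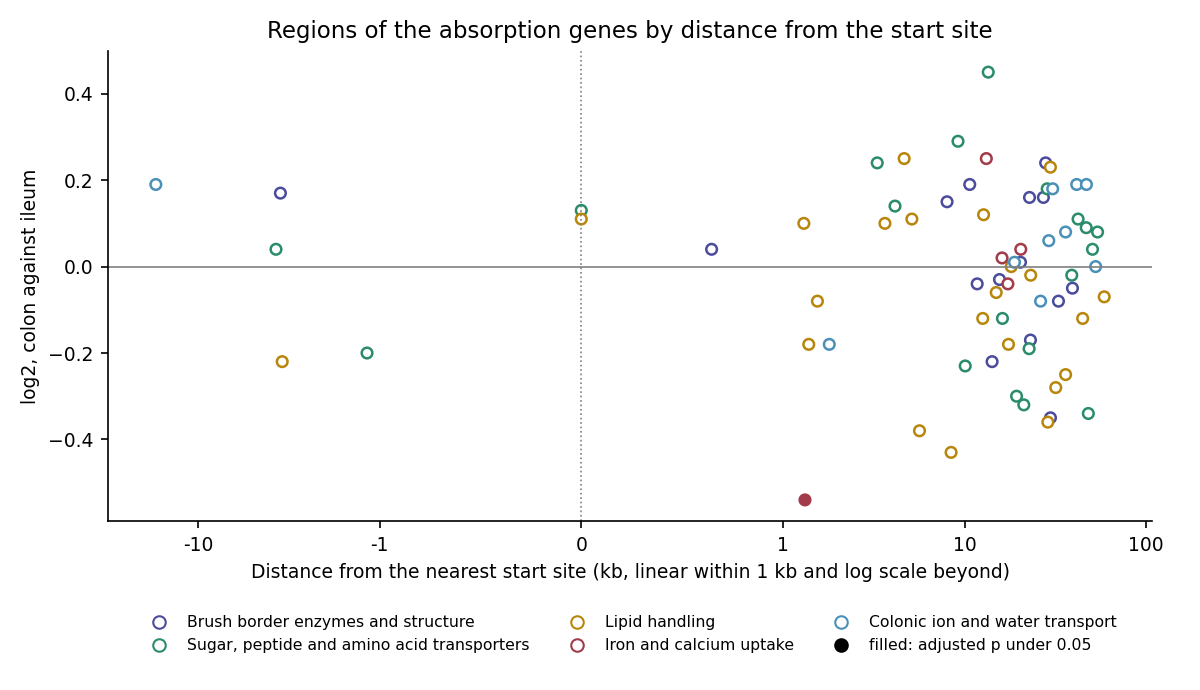
Log2 difference of captured DNA, colon minus ileum, for the regions of the listed genes with a start site in the table, against their distance from the nearest start (kb, linear within 1 kb and log scale beyond; positive values lie in the direction of transcription); colours give the role and a region near 2 listed genes is drawn for each. Few regions lie within 1 kb of a start, and the filled point, Cybrd1 at -0.54, is the single one past the threshold.

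A wider list of absorption genes gave no call in the comparisons looked at. In this list of 68 further genes of digestion, absorption and the brush border, 60 had a region, and 0 of their 239 regions passed the joint test, colon against ileum or colon against duodenum in edgeR. At an unadjusted p under 0.05 there were 23, 23 and 25 (9.62%, 9.62% and 10.5%), against 12.2%, 15.2% and 13.1% of all regions. Of 85 regions of transcription factors that pattern the gut, 2 passed in colon against duodenum, lower in colon in Nr1h4 and higher in Pdx1, beside 1.19% of all regions. In colon against ileum 2 of the 85 passed, beside 2.21% of all regions. A region of Meis1, lower in colon, was among these. The joint test called 0 of the 85. At an unadjusted p under 0.05 this list had 18 regions in the joint test (21.2%, against 12.2% of all regions). It had 15 in colon against ileum (17.6%, against 15.2%) and 16 in colon against duodenum (18.8%, against 13.1%). Of its 20 gene sums 2 passed in colon against duodenum, beside 3.51% of all gene sums. Markers of other cells of the wall were looked at in the same way. In colon against ileum 0 of 39 leukocyte regions passed, 1 of 56 smooth muscle regions (Synpo2, lower in colon), 0 of 52 for fibroblasts and endothelium, 0 of 42 for enteric neurons and glia, and 0 of 54 for secretory and stem cells. The median log2 values of these lists lay between -0.071 and -0.023, beside -0.017 for the listed genes and -0.002 for all regions. As gene sums in colon against ileum, Pecam1, an endothelial marker, was lower in colon (1 of 9 genes of fibroblasts and endothelium). So was Lgr5, a stem cell marker (1 of 11 secretory and stem cell genes). Of these 11 gene sums 7 lay above 0 and 4 below, with a median log2 value of 0.062. Of the 9 for fibroblasts and endothelium 4 lay above 0 and 5 below, with a median of -0.017. No gene sum of leukocytes (15 tested), smooth muscle (12) or enteric neurons and glia (8) passed there in edgeR, where 4.74% of all gene sums did. At an unadjusted p under 0.05 these lists had 2, 0 and 0 in that order. Fibroblasts and endothelium had 3 (33.3%) and secretory and stem cells 3 (27.3%), against 18.6% of all gene sums. Whether a different mix of cells takes part in the Cybrd1 and Slc11a2 differences was not tested.

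The microbial status of the mice was compared next, on counts summed over the 4 sections so that the mouse was the replicate. No listed region passed in edgeR, against 0.475% of all regions, with 12 at an unadjusted p under 0.05 (11.7%, against 6.63% of all regions) and 0 in DESeq2. In single sections edgeR also called 0 listed regions. The background and the listed regions tested were 0.466% and 89 in duodenum, 0.344% and 94 in jejunum, 0.365% and 97 in ileum, and 0.54% and 91 in colon. Listed regions at an unadjusted p under 0.05 numbered 5, 5, 11 and 5 in that order, or 5.62%, 5.32%, 11.3% and 5.49%, against 7.01%, 5.35%, 5.13% and 7.44% of all regions. DESeq2 called 0 in each, with an adjusted p for 88 of the 91 tested in colon and for all those tested in the other sections. On the sums every 95% interval of a listed region stayed within a log2 difference of 1, and 96 of 103 stayed within 0.5.

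Gene sums were compared in the same way, a step added after the data were seen. Of the 31 genes 0 passed in edgeR, against 0.496% of all gene sums. At an unadjusted p under 0.05 there was 1 (3.23%, against 7.62% of all gene sums). DESeq2 was not run there. The gene at an unadjusted p under 0.05 was Vil1, whose level was 27.8 ± 2.52 CPM over the GermFree mice (SD, n = 7). The ConvR mice had 30.6 ± 1.35 CPM (SD, n = 5). Its log2 difference was -0.15 (95% interval -0.27 to -0.03, edgeR adjusted p = 0.551). Of the 3 regions in this sum, 1 lies past the gene over the neighbour Usp37, at 6.12 CPM in GermFree and 7.56 in ConvR mice. The 2 inside Vil1 had means of 8.89 and 12.7 CPM in GermFree mice, beside 9.0 and 14.1 in ConvR mice. All 31 intervals lay within 0.5. A joint test asked whether the models differed more in some sections than in others. It called 0.0% of all regions and 0 listed ones in edgeR, and 0 listed ones in DESeq2. In edgeR 4 listed regions had an unadjusted p under 0.05 (3.88%, against 4.96% of all regions).

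The 5 listed regions with the smallest p between the models lay in Lct, Scnn1a and Scnn1b, upstream of Lct, and over both Abcg5 and Abcg8. The Lct region chr1:128293374-128295427, in the gene body, ran from 8.95 to 10.9 CPM in GermFree mice (median 10.4, each mouse's mean over 4 sections). ConvR mice 1 to 5 had 10.4, 12.3, 14.8, 13.5 and 12.8 CPM. All but 1 of the ConvR mice lay above every GermFree mouse. The log2 difference, GermFree minus ConvR, was -0.31 (95% interval -0.49 to -0.13, unadjusted p = 0.00106, edgeR adjusted p = 0.172). The region upstream of Lct, chr1:128331833-128335857, which lies over its neighbour Mcm6, had the opposite sign, 0.20 (0.05 to 0.35, edgeR adjusted p = 0.525). In ileum alone that region had 0.55 with an adjusted p of 0.239, and without GermFree mouse 3 it passed there (0.64, edgeR adjusted p = 0.0363).

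Scnn1a showed a split among the ConvR animals. At chr6:125316214-125319884 the GermFree mice lay between 15.9 and 18.7 CPM (median 17.5). ConvR mouse 1 had 36.4 CPM and ConvR mouse 3 had 28.4, while ConvR mice 2, 4 and 5 had 16.1, 20.3 and 18.6. The 2 high animals lay above all other mice. The mean was 17.4 ± 0.953 CPM over the GermFree mice (SD, n = 7) and, with a far wider spread, 24.0 ± 8.36 over the ConvR mice (SD, n = 5). The log2 difference was -0.34 (95% interval -0.55 to -0.13, edgeR adjusted p = 0.286). Without ConvR mouse 2 it was -0.46 and passed (edgeR adjusted p = 0.00904), as it did then in ileum (-0.74, 0.00465). Without ConvR mice 1 and 3 it was -0.04 (edgeR adjusted p = 0.995), and -0.28 in ileum.

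At the region of Abcg5/Abcg8, chr17:84674434-84677887, which covers the upstream Abcg8 start printed above, the groups did not overlap. This was the 1 listed region of which that held (0.971%), and it held for 519 of all 95876 regions (0.541%). GermFree mice ran from 15.4 to 16.9 CPM (median 16.4), and ConvR mice 1 to 5 had 12.8, 15.2, 11.9, 15.3 and 14.8. The log2 difference was 0.21 (95% interval 0.05 to 0.36, unadjusted p = 0.0108), which did not pass after adjustment (0.569 in edgeR, where 0.475% of all regions passed). Without ConvR mice 1 and 3 it was 0.12. The other Abcg8 regions were lower in GermFree mice, at 8.53 and 16.5 CPM, beside 9.85 and 16.8 in ConvR mice. The Abcg8 gene sum was 41.5 CPM in GermFree and 40.6 in ConvR mice, and that of Abcg5 34.0 and 31.9. The Scnn1b region, chr7:121891257-121891839, had the highest value of the set, 0.41 (0.13 to 0.70, edgeR adjusted p = 0.460), at the low level of 5.05 ± 0.76 CPM over the GermFree mice (SD, n = 7) and 3.81 ± 0.403 over the ConvR mice (SD, n = 5).

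**Figure D4:**
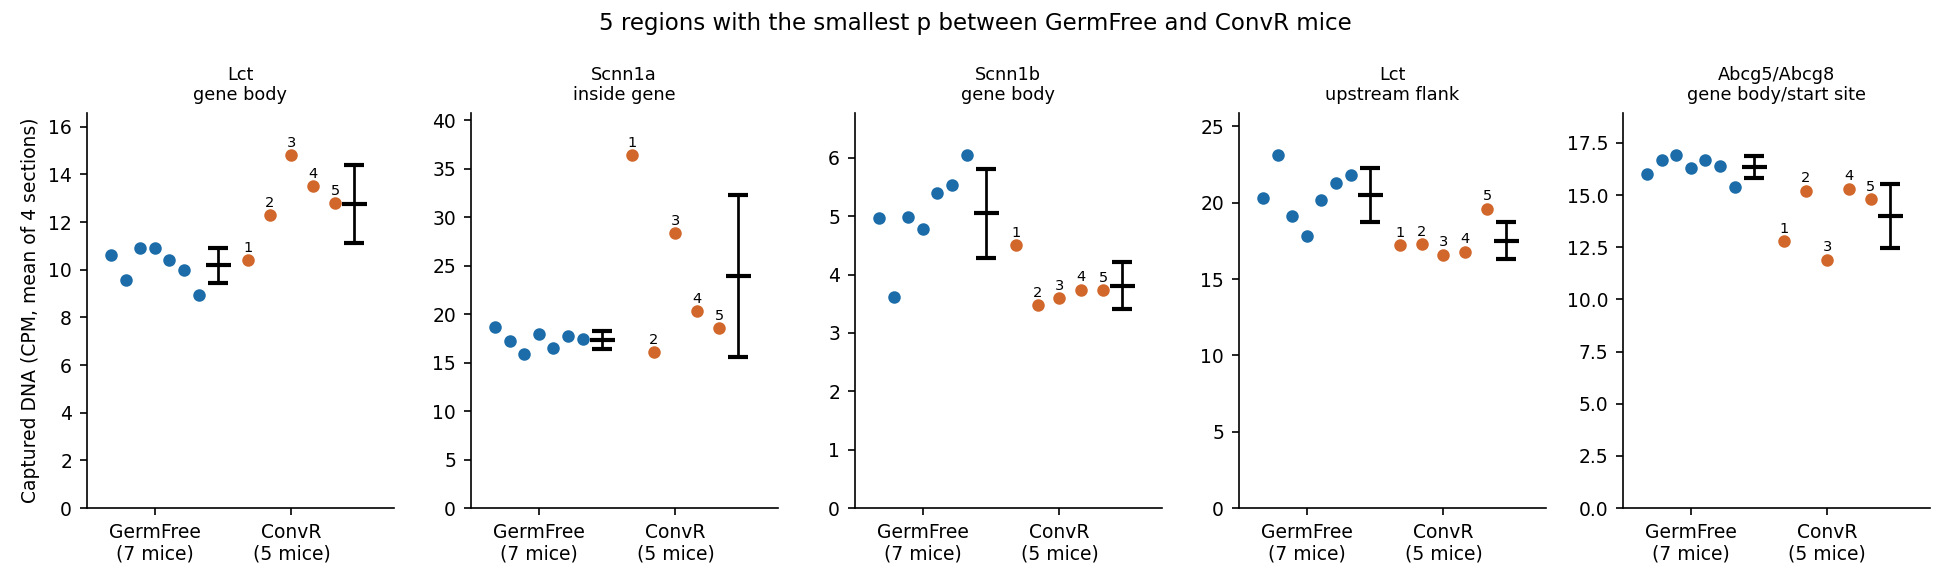
Captured DNA (CPM, mean over the 4 sections of a mouse) at the 5 listed regions with the smallest p between models, for 7 GermFree mice (blue) and 5 ConvR mice (orange, with their numbers); bars beside the points give the mean and SD. At Scnn1a ConvR mice 1 and 3 stand above all others at 36.4 and 28.4 CPM, and at Abcg5/Abcg8 every GermFree mouse lies above every ConvR mouse (the groups did not overlap at 0.541% of all regions).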

How the data were processed

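The members and the gene lists were chosen with earlier results of these data known. The submitters' processing notes name Trim Galore 0.3.7, cutadapt 1.4.2, MACS2, featureCounts and the build mm10, without their settings. Not given in the sources used here are the aligner, what was done with duplicates, and which libraries the peaks came from. The authors deposited whole-number read counts per region, not normalized, and a peak list whose score per region is the authors' own and was not used for any result. Every region name carries the GermFree label, so regions captured more in ConvR mice may be under-represented.

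Regions were joined to RefSeq genes (GRCm38.p6; all 37 symbols matched) by overlap or a gap of at most 5 kb, and counts were also summed per gene. Counts were fitted with edgeR 4.0.16 in R 4.3.3 (filterByExpr, TMM, trended dispersion; quasi-likelihood F-test with Benjamini-Hochberg adjustment over all regions or genes tested, threshold 0.05) over 8 groups of model and section, with both models weighted equally, and for the models on counts summed per mouse or on 1 section. The fitted gradient weights the 4 sections linearly. Intervals are log2 ± t times SE. DESeq2 1.42.0 was a second tool; where its own filter gave no adjusted p, a feature counts as not assessed by it. Section fits without a block treat libraries of 1 mouse as independent. The 4 libraries of a mouse come from the same animal per the labels, so they are paired. The correlation of their deviations from the group means had a median of 0.02 over 72 pairs of libraries (range -0.0425 to 0.19). Counting error lowers such a correlation, so it does not show how much mice differ. Scripts were tested on simulated data first. Named regions were those of the 6 genes with the smallest joint p, and for the models the 5 with the smallest p; regions past the threshold in another comparison, and those at either end of a comparison, were added after their values were seen. Python 3.11.15, pandas 2.3.3 and Matplotlib 3.10.9 were used for joining and figures. Intervals rest on edgeR's estimate of the spread, which draws on other regions as well as on the mice at 1 region. They can be too narrow where mice differ widely, as at the Scnn1a region where ConvR mice 1 and 3 stood apart. PCR reads are not independent molecules. One result of the wider gene lists is not reported here.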

Additional observations from a re-analysis of the deposited data

Results flagged for a closer look

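Within each group of 7 GermFree or 5 ConvR mice in 1 section, a mouse was singled out when its gap to the nearest other mouse was a large part of the group's range. This happened 12 times in 304 groups of the named regions and gene sums, where about 1 in 20 groups, or 15.2, would be singled out by chance.

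ConvR mouse 1 was singled out most often. From duodenum to colon its libraries held 1227571, 1571642, 1007560 and 1572791 counts, against a median of 2122529 over all libraries. Its ileum library was the smallest of all. Whether the depth of this mouse's libraries plays a part was not tested. Its duodenum was the lowest of the ConvR mice at the Cybrd1 region (8.18 CPM, the others 10.2 to 10.9) and at the Abcg8 region (8.18, the others 10.2 to 10.7). Its jejunum was the highest at the Scarb1 region (16.5, the others 8.27 to 10.2) and the lowest for the Cybrd1 gene sum (33.0, the others 37.2 to 38.7). It was the highest for Dgat1 in colon (36.8 CPM, the others 22.2 to 24.7) and for Slc9a3 in ileum (73.9, the others 33.7 to 42.2). ConvR mouse 3 was the highest at the Scnn1a region in jejunum (28.1 CPM, the others 16.7 to 17.4).

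Among the GermFree mice, gene sums were singled out. In jejunum Slc7a9 was low in mouse 6 (9.75 CPM, the others 13.4 to 16.0), Npc1l1 was high in mouse 3 (39.5, the others 28.9 to 33.3) and Dgat1 was low in mouse 2 (17.6, the others 22.1 to 24.5). In colon Mttp was high in mouse 3 (80.0 CPM, the others 64.4 to 69.3) and Dgat2 in mouse 7 (82.8, the others 67.1 to 73.7).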

How the results depend on the processing

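Counts of listed regions past the threshold moved by 1 or 2. In colon against ileum, 1 region without a block became 2 with the mouse as a replicate block and 0 in the ConvR mice alone, and leaving out 1 mouse at a time gave 0 to 3. Leaving out 1 mouse gave 0 to 1 for the joint test, for the gene sums between sections, for GermFree against ConvR summed and for the same in ileum. The replicate block changed no other count of listed features. Mouse numbers shared by GermFree and ConvR mice are only names; with them, or the code in the titles, as a replicate block, 0 listed regions passed between the models. Over all regions, the mouse as a replicate block in the section fits raised the gradient from 15 to 1087 calls. With the same block colon against duodenum rose from 1143 to 2321, the joint test from 1120 to 2447 and colon against ileum from 2115 to 3445. DESeq2 gave 354, 784, 671 and 920 in that order. Without ConvR mice 1 and 3 the gradient had 98 calls, and with DESeq2 size factors 0. Of 1247 values of single regions and genes under alternatives, 1232 stayed on their side of the threshold, 6 lost it and 9 gained it; 93 values below the threshold in both fits differed in sign. The cause was not tested. The listed regions rest on a median of 20 counts per library, so differences that are small beside the intervals given may have been missed at this depth.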
